A study of Mus musculus with 10 samples.

Results

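The epidermal lipid barrier genes described here are Alox12b, Aloxe3, Abca12, Cers3, Elovl4, Tgm1, Tgm3, Sdr9c7 and Pnpla1. They were chosen by name, as enzymes and a transporter that make, load, oxidise or crosslink the lipids and proteins of the skin barrier. All 9 were found among the 18502 genes of the Eed table and among the 18344 genes of the Ring1 table. RNA was sequenced from adult mice at postnatal day 71, in interfollicular epidermal cells of the back sorted for EpCAM, for Sca1 and for a high level of α6-integrin, a surface profile of epidermal progenitors. Eed belongs to the core of Polycomb repressive complex 2, which methylates histone H3, and the Ring1a and Ring1b proteins, encoded by Ring1 and Rnf2, are the histone ubiquitin ligases of Polycomb repressive complex 1. The series title places the work in skin pigmentation.

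The 4 groups were compared within 2 separately normalised tables. The Eed KO (genotype Eed -/-, n = 3) was set against the Eed control (n = 3). The Ring1a/b 2KO (genotype Ring1a-/- Ring1b-/-, n = 2) was set against the Ring1 control (n = 2). The genotype of both control groups is labelled only as control, and they share no library. Recombination was induced in adult skin, with 100 µl of 4-hydroxytamoxifen at 20 mg/ml in ethanol applied once a day for 4 days from postnatal day 50 on shaved back skin. That protocol is attached to the knockout and the control libraries alike. Neither the Cre driver nor the floxed exons are stated in these sources. Nor do they say whether every library had its own mouse. The p-values therefore measure spread among these libraries only.

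The outermost living layer of the epidermis, the granular layer, builds the water barrier. There, very long fatty acids are joined to a sphingoid base and capped with linoleic acid to give acylceramides, which are packed into lamellar bodies and secreted. Lipoxygenases and a dehydrogenase then oxidise the linoleate, after which the lipid can be attached to the cornified envelope, a protein shell crosslinked by transglutaminases. Inherited loss of most of these genes in people causes ichthyosis, a scaling skin disease.

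The 3 enzymes that oxidise acylceramide linoleate, Alox12b, Aloxe3 and Sdr9c7, had lower mean counts in both knockouts than in their controls. Alox12b averaged 0.311 of its control in the Eed KO and 0.306 of its control in the Ring1a/b 2KO, and no knockout library reached a control library in either table. Sdr9c7 averaged 0.268 of its control in the Ring1a/b 2KO and was the only one of the 9 genes with an adjusted p under 0.05 in the authors' deposited table. The genes that build, cap and load acylceramides, Elovl4, Cers3, Pnpla1 and Abca12, ranged in their log2 fold changes between -0.76 and 0.58 over both comparisons. Of these, Elovl4, Cers3 and Abca12 also had lower mean counts in both knockouts. In the Eed KO the log2 fold changes of Aloxe3 (-0.69) and Sdr9c7 (-0.48) lay within that range. Tgm1 was lower in every Eed KO library than in every Eed control library, and Tgm3 varied more between libraries of a group than between the groups. Each Eed KO library nonetheless held more Tgm3 than the Eed control library of the same number. By the same reading each held less Elovl4 and less Cers3, as well as less of the genes without overlap. The share of all genes for which same-numbered libraries differ in 1 direction was not computed.

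None of the 9 genes passed limma, fitted to log2(normalised read count + 1) with a Benjamini-Hochberg adjusted p under 0.05. The same test called 0 genes lower and 0 higher among 16122 in the Eed KO (0% each way), and 1 lower (0.00653%) and 5 higher (0.0327%) among 15310 in the Ring1a/b 2KO. At an unadjusted p under 0.05, limma counted 762 genes (4.73%) in the Eed KO, and edgeR, which also called 0 there, counted 698. Of the 9 genes 2, Alox12b and Tgm1, were lower at that threshold in the Eed KO, against 1.33% of all genes. The Ring1a/b 2KO had 3, Alox12b, Aloxe3 and Sdr9c7, against 4.81% of all genes lower and 1597 (10.4%) in either direction. The authors' deposited table (DESeq2, adjusted p under 0.05) held 127 calls in the Eed KO (0.761%), 0.0539% lower and 0.707% higher, none of them a barrier gene. For the Ring1a/b 2KO the authors' deposited table held 231 calls (1.49%), 48 of them lower (0.31%), with Sdr9c7 among those 48, and no barrier gene among those that were higher (1.18%).

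The median log2 fold change of the 9 genes was -0.60 in the Eed KO and -0.14 in the Ring1a/b 2KO, while the medians over all genes tested were 0.0080 in the Eed KO and -0.00062 in the Ring1a/b 2KO. The median of the 9 was -0.23 without Eed KO library 1 and -0.33 without Eed control library 3 in the Eed KO. In the Ring1a/b 2KO it was -0.055 without Ring1 control library 1 and -0.40 without Ring1a/b 2KO library 2. Log2 fold changes were below 0 for 7 of the 9 in the Eed KO and for 6 of the 9 in the Ring1a/b 2KO, against 48.8% and 50% of all genes. Groups did not overlap, with the knockout lower, for 3 of the 9 genes in the Eed KO (Alox12b, Abca12 and Tgm1), against 4.15% of all genes tested, and for none with the knockout higher, against 5.06%. The count was also 3 of 9 in the Ring1a/b 2KO (Alox12b, Aloxe3 and Sdr9c7), against 21.5% of all genes with 2 libraries a group. Pnpla1 alone did not overlap with the knockout higher in the Ring1a/b 2KO, against 21.4%. Alox12b was the one barrier gene that was lower without overlap in both knockouts, as were 268 of the 15096 genes tested in both tables (1.78%).

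**Figure D1:**
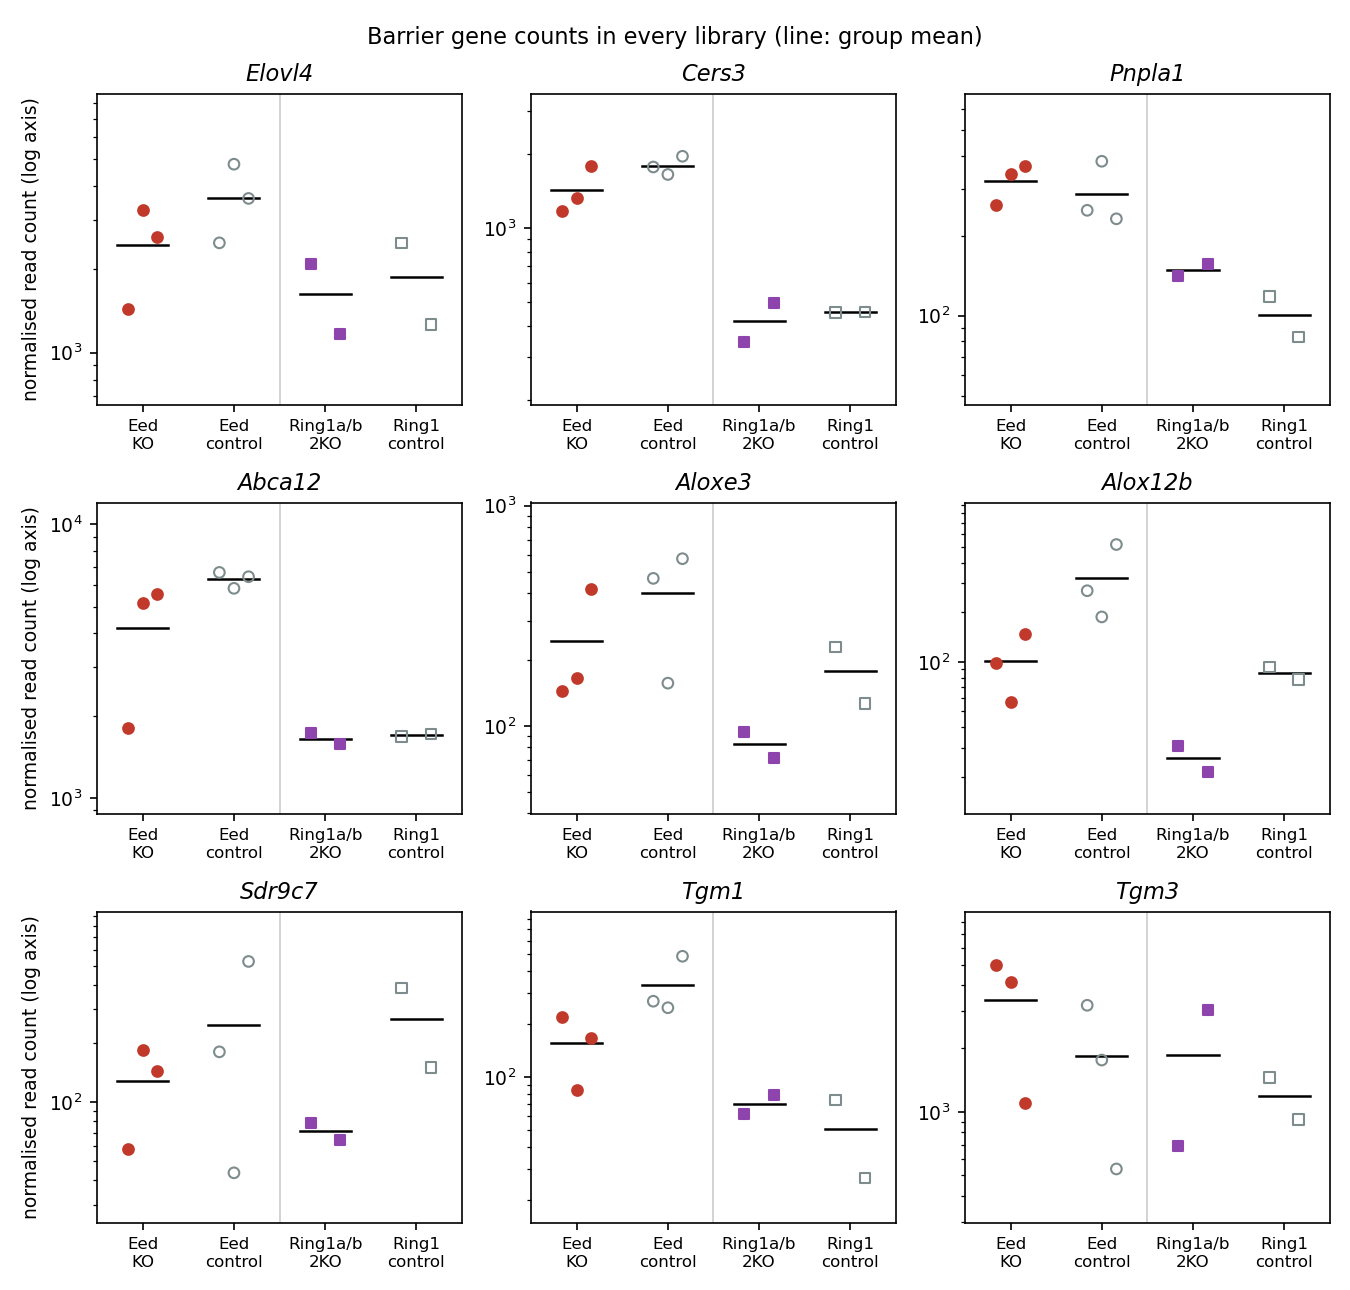
Normalised read count of each barrier gene in all 10 libraries (log axis), with Eed libraries as circles, Ring1 libraries as squares, knockouts filled, controls open and a line at the group mean. The filled Alox12b symbols lie below the open ones in both tables, while Abca12 in the Ring1a/b 2KO lies level with its control, at 1720 and 1576 against 1678 and 1710.

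Recovered reads per library ran between 31699979 and 40701183 in the Eed KO and between 32667439 and 39006853 in the Eed control. The second library was shallow in both Ring1 groups, with 19814853 and 6237389 reads in the Ring1a/b 2KO and 25158144 and 7162907 in the Ring1 control. Barrier genes rested on at least 12 reads, the lowest being Alox12b in Ring1a/b 2KO library 2. All 9 passed the filter of a mean of at least 5. The targeted genes did not mark the knockouts. Eed measured 1412, 1143 and 1340 in the Eed KO and 1845, 1319 and 1706 in the Eed control. Ring1 measured 104 and 115 in the Ring1a/b 2KO and 66.2 and 211 in the Ring1 control, and Rnf2 measured 720 and 529 in the Ring1a/b 2KO and 675 and 670 in the Ring1 control. Counts over a whole gene do not show a short deletion, so they check no label. Of the sort markers, Itga6 measured 9738 and 9343 in the Ring1a/b 2KO and 17301 and 13462 in the Ring1 control. Its log2 fold change there was -0.68 ± 0.22 (SE, adjusted p = 0.372 in limma). In the Eed KO the limma log2 fold changes were -0.35 ± 0.25 for Itga6, 0.00033 ± 0.24 for Epcam and 0.22 ± 0.31 for Ly6a, the Sca1 gene (SE). All 3 overlapped the Eed control. Epcam and Ly6a are not given here for the Ring1a/b 2KO.

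Levels can be compared between genes only per length, here as normalised count per kilobase of the longest coding transcript, within a table. Elovl4, Abca12, Cers3 and Tgm3 held the first 4 places in every group. In the Eed KO the order opened with Tgm3 at 821 ± 491 per kilobase and Elovl4 at 815 ± 313, and in the Eed control with Elovl4 at 1209 ± 383 and Abca12 at 690 ± 47.1 (SD, n = 3 each). The other 5 genes averaged between 41.6 and 80.3 per kilobase in the Eed KO and between 64.1 and 134 in the Eed control. Most neighbours in these orders overlapped between libraries, among them all of the last 5 genes in both Eed groups.

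Alox12b took the last place in both knockouts and a higher one in both controls. It stood at 41.6 ± 18.8 per kilobase in the Eed KO and at 134 ± 70.4, in place 5, in the Eed control (SD, n = 3 each). It stood at 10.8 ± 2.73 per kilobase in the Ring1a/b 2KO and at 35.2 ± 4.40, in place 7, in the Ring1 control (SD, n = 2 each). Pnpla1 held place 6 in the Eed KO, against place 9 in the Eed control, and place 5 in the Ring1a/b 2KO, against place 8 in the Ring1 control. The labelled cell type was checked against layer markers. The summed count of 8 basal markers ran between 1378062 and 1846102 in the Eed KO and between 1353217 and 1883211 in the Eed control, while 9 granular markers summed to at most 6314 in the Eed KO and at most 19280 in the Eed control. Defining markers of both layers were thus present. The basal counts were far higher, but these sums are not per length and do not give shares of cells. Spinous markers were present too, with sums of up to 305367 in the Eed KO and 437125 in the Eed control. Sums of the Ring1 groups are given further below.

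Start sites differed in base composition. Polycomb complexes in mammals are found mostly at starts rich in CG dinucleotides, so the number of these was counted in RefSeq promoters of GRCm38.p6, running from 250 bases before the start to 50 after it. RefSeq promoters were matched for 8 of the 9 genes, all but Aloxe3, with 2 starts for Tgm1. Alox12b and Sdr9c7 are shown as the genes lowest against their controls in the Ring1a/b 2KO, and Elovl4 as the 1 gene whose start was rich in CG (GC content of at least 50% and an observed over expected ratio of at least 0.6, met by 33.5% of 32851 promoters). Capitals mark CG dinucleotides, and each sequence is written 5′ to 3′ on the strand of its gene.
Alox12b, chr11:69156822-69157121, plus strand: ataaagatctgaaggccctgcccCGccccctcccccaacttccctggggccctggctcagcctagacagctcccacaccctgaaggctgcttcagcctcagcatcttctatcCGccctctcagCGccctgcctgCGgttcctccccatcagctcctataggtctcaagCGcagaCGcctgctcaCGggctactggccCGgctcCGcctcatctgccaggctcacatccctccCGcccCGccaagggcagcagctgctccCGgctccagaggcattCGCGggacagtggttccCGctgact
Sdr9c7, chr10:127898285-127898584, plus strand: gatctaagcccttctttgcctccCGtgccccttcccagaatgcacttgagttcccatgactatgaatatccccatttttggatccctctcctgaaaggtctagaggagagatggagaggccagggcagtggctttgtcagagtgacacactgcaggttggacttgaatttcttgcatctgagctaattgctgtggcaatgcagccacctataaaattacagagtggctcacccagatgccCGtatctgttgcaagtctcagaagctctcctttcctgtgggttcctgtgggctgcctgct
Elovl4, chr9:83806256-83806555, minus strand: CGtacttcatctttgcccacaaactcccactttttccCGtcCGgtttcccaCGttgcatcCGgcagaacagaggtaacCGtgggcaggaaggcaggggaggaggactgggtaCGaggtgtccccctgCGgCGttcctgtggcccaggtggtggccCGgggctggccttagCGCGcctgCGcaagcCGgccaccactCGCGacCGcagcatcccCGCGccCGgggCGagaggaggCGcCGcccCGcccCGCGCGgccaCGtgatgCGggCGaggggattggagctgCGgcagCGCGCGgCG

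The Elovl4 promoter held 35 CG dinucleotides, an observed over expected ratio of 0.926, against a median of 7 and a ratio of 0.384 over all promoters. The Alox12b promoter held 15, a ratio of 0.506, and the Sdr9c7 promoter held 2, a ratio of 0.103. The other promoters of the set held between 6 and 12. Both strands were searched for CACCC, the core of KLF sites, for TGANTCA, the AP-1 element, and for the TATA-box letters TATAAA. The letters AACCNGGTT were searched as well, and are read only as a string, not as the sites of any factor. Matches to CACCC were found at 6 of the 8 genes and in 57.5% of all promoters. Matches to TATAAA were found at Sdr9c7, 42 bases before the start, and at Tgm3, 28 bases before it, and in 13.6% of all promoters. TGANTCA (7.81% of all promoters) and AACCNGGTT (0.271%) matched none of the 8.

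Alox12b, on chromosome 11 (69156989-69169792, plus strand, 15 exons; GENCODE M21, GRCm38), encodes the lipoxygenase that first oxygenates the linoleate of acylceramides. In the Eed KO its normalised read count was 98.3, 57.0 and 148, against 271, 188 and 517 in the Eed control. The highest Eed KO library lay below the lowest Eed control library. Group means were 101 ± 45.7 in the Eed KO and 325 ± 171 in the Eed control (SD, n = 3 each), a log2 fold change of -1.65 ± 0.48 (SE, 95% interval -2.72 to -0.58; limma unadjusted p = 0.00687, adjusted p = 0.775). The authors' deposited table gave -1.68 with a DESeq2 adjusted p of 0.0564. With DESeq2 on recovered reads, the adjusted p was 0.0138 without Eed control library 2 and 0.0166 without Eed KO library 3. Those are the lowest control and the highest knockout library, so leaving either out sets the groups further apart. Over all 6 left-out libraries the DESeq2 log2 fold change ran between -2.07 and -1.18, and some of these fits called no barrier gene. DESeq2 with replicate number as a block, chosen after seeing the data, called Alox12b, while limma with that block did not.

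The Alox12b difference was as large in the Ring1a/b 2KO, at counts of 30.9 and 21.5, against 93.2 and 78.1 in the Ring1 control. Both Ring1a/b 2KO libraries lay below both Ring1 control libraries, from 50 and 12 recovered reads in the Ring1a/b 2KO and 179 and 47 in the Ring1 control. limma gave a log2 fold change of -1.69 ± 0.51 (SE, 95% interval -2.84 to -0.54; limma unadjusted p = 0.00885, adjusted p = 0.344). The authors' deposited table gave an adjusted p of 0.168. Over all genes tested in both tables, 57 (0.378%) had a limma log2 fold change below -1 in both knockouts, and Alox12b was the only barrier gene among them. The Eed KO change minus the Ring1a/b 2KO change of Alox12b was 0.04 ± 0.72 (SE, 95% interval -1.53 to 1.60).

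Aloxe3, 7873 bases upstream of Alox12b on the same strand (chromosome 11, 69125896-69149115, 15 exons), encodes the lipoxygenase that turns the product of Alox12b into an epoxyalcohol. Its counts were 144, 165 and 418 in the Eed KO and 467, 156 and 574 in the Eed control. The groups overlapped, with Eed control library 2 next to the low Eed KO libraries, and the log2 fold change was -0.69 ± 0.55 (SE; adjusted p = 0.989 in limma). Without Eed control library 2 it was -1.27, and without Eed control library 3 it was -0.33. Aloxe3 measured 93.3 and 71.7 in the Ring1a/b 2KO, against 228 and 126 in the Ring1 control. These groups did not overlap, and the log2 fold change was -1.04 ± 0.41 (SE, 95% interval -1.97 to -0.11; limma unadjusted p = 0.0316, adjusted p = 0.436). Without Ring1 control library 1 it was -0.62, and without Ring1 control library 2 it was -1.46. The 2 protein-coding genes of the tables on each side of the pair, looked up after the values were known, had no adjusted p under 0.05. The nearest on the far side of Alox12b, the lipoxygenase Alox8, had a positive log2 fold change in both, at 1.14 ± 0.51 in the Eed KO (adjusted p = 0.989 in limma) and 0.53 ± 0.89 in the Ring1a/b 2KO (adjusted p = 0.879 in limma).

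Sdr9c7, on chromosome 10 (127898518-127911761, plus strand, 4 exons), encodes the dehydrogenase that oxidises the epoxyalcohol further. Its counts were 57.6, 185 and 145 in the Eed KO and 181, 43.6 and 525 in the Eed control. The lowest library of the Eed set was a control and the highest was another control, and the log2 fold change of -0.48 ± 0.81 (SE; adjusted p = 0.989 in limma) turned to 0.37 without Eed control library 3 and to 0.02 without Eed KO library 1. Sdr9c7 measured 78.5 and 64.5 in the Ring1a/b 2KO, against 383 and 151 in the Ring1 control. Both Ring1a/b 2KO libraries lay below both controls, though the controls differed from each other more than the lower of them did from the knockouts. limma gave -1.74 ± 0.47 on the log2 scale (SE, 95% interval -2.80 to -0.69; limma unadjusted p = 0.00476, adjusted p = 0.282). In the authors' deposited table Sdr9c7 fell by 1.90 on the log2 scale with an adjusted p of 0.0247. With DESeq2 on recovered reads that call was lost without Ring1 control library 1 (log2 fold change -1.07, adjusted p = 1.00) and without Ring1a/b 2KO library 2 (log2 fold change -1.76, adjusted p = 0.263).

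**Figure D2:**
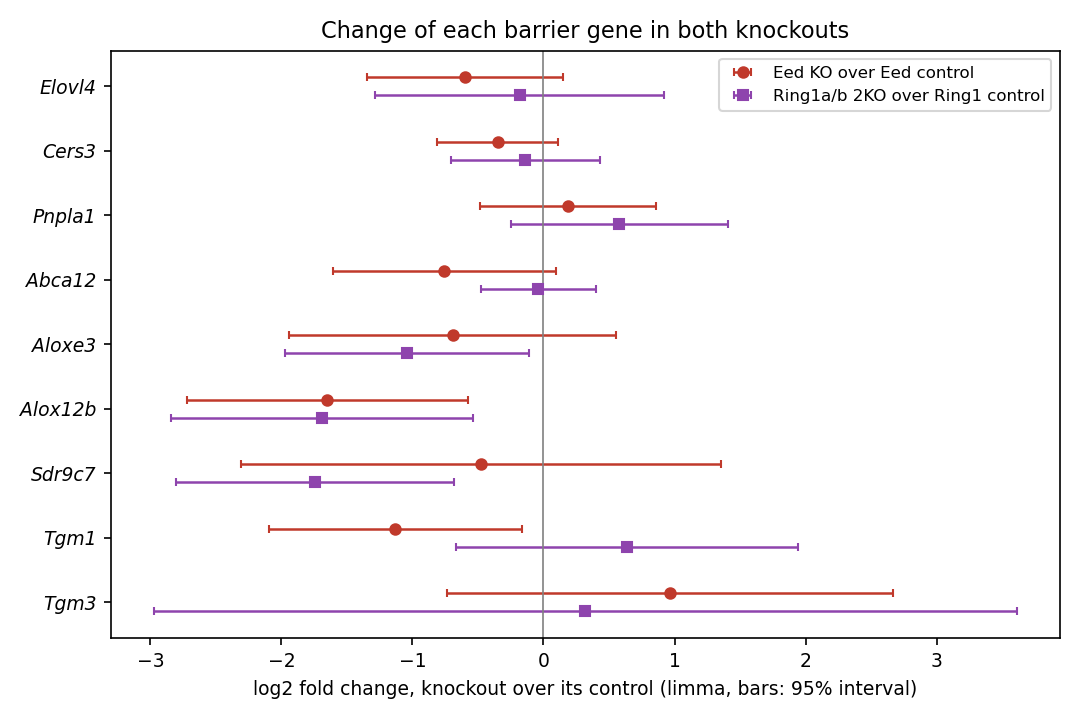
Log2 fold change of each barrier gene with its 95% interval from limma (x axis). Circles are the Eed KO over the Eed control, and squares are the Ring1a/b 2KO over the Ring1 control. Genes run from acylceramide synthesis and loading to oxidation and crosslinking, with Aloxe3 placed before Alox12b although it acts after it. Alox12b lies at -1.65 and -1.69 with both intervals below 0, and Tgm1 lies at -1.13 in the Eed KO and at 0.64 in the Ring1a/b 2KO.

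Markers of the granular layer had log2 fold changes of the same sign as these oxidising enzymes. The summed count of 9 granular markers (Lor, Flg, Flg2, Hrnr, Ivl, Cdsn, Casp14, Asprv1 and Klk7) was 4904, 5817 and 6314 in the Eed KO and 10846, 5144 and 19280 in the Eed control. It was 2498 and 1732 in the Ring1a/b 2KO and 5946 and 3172 in the Ring1 control. All 9 had negative log2 fold changes in both knockouts, against 48.8% of all genes in the Eed KO and 50% in the Ring1a/b 2KO. Their medians were -0.67 in the Eed KO and -0.83 in the Ring1a/b 2KO, and limma called none. The authors' deposited table for the Ring1a/b 2KO called 3 of them lower, Flg2, Cdsn and the envelope protein Lor, against 0.31% of all genes. No granular marker was at 0 in any whole group. The part of the granular markers in the lower Alox12b, Aloxe3 and Sdr9c7 counts was not tested, and in RNA from a whole sorted sample fewer cells of a type and less RNA per cell cannot be told apart.

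The same 3 enzymes followed the granular sum over the 10 libraries, each value being centred on the mean of its table so that knockouts and controls both enter. Pearson's r with the log2 sum was 0.86 for Alox12b, 0.89 for Aloxe3 and 0.90 for Sdr9c7. It was between 0.39 and 0.49 for Elovl4, Cers3, Abca12 and Tgm1, and it was -0.60 for Pnpla1 and -0.53 for Tgm3. Among the barrier genes themselves the highest values were 0.84 for Aloxe3 with Sdr9c7 and 0.81 for Alox12b with Aloxe3, and the lowest was -0.63 for Alox12b with Tgm3. Libraries share their normalisation and group membership, so these are descriptions.

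**Figure D3:**
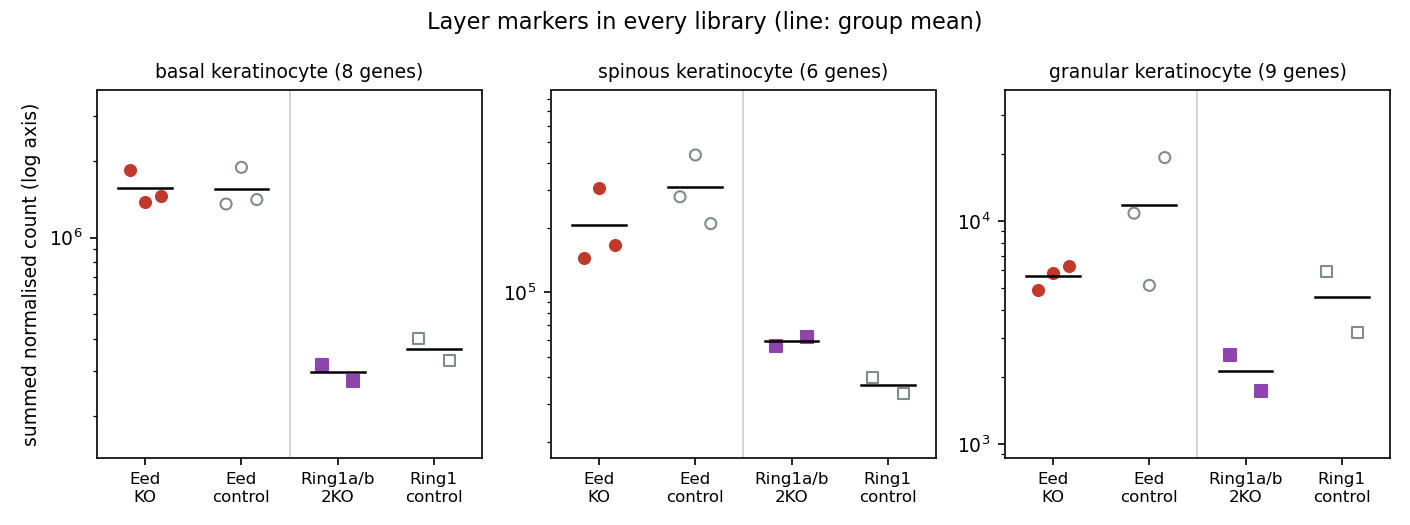
Summed normalised count of 8 basal, 6 spinous and 9 granular keratinocyte markers in every library (log axis), with symbols as in the plot of the single genes and a line at the group mean. The granular sums of the Ring1a/b 2KO, 2498 and 1732, lie below both Ring1 control sums. With 2 libraries a group, 21.5% of all single genes were also lower without overlap there. Eed control library 2, at 5144, lies among the Eed KO libraries.

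The summed markers of other layers and cell types differed in direction between lists. Spinous markers (6 genes) summed to 143907, 305367 and 166360 in the Eed KO and to 278907, 437125 and 208967 in the Eed control. They summed to 56240 and 61629 in the Ring1a/b 2KO and to 39880 and 33729 in the Ring1 control, where the authors' deposited table called the spinous keratin Krt1 higher. Without Krt1 the spinous sums overlapped, between 25705 and 32012 in the Ring1a/b 2KO and between 23863 and 25933 in the Ring1 control. Basal markers summed to between 274319 and 318003 in the Ring1a/b 2KO and to between 329946 and 400516 in the Ring1 control. In the fibroblast list (5 genes) the proteoglycan gene Dcn carried much of the difference. Dcn measured 863, 306 and 129 in the Eed KO and 19.5, 34.5 and 74.8 in the Eed control, and the authors' deposited table called it higher with an adjusted p of 0.000238. The other 4 fibroblast markers together summed to between 41.5 and 187 in the Eed KO and to between 25.4 and 115 in the Eed control, and to between 87.1 and 96.8 in the Ring1a/b 2KO and between 47.9 and 49.9 in the Ring1 control.

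In the inner root sheath list (7 genes) at least 93.0% of the sum in every library was Gata3, a gene that is also on the list of differentiation transcription factors. The 6 others together summed to between 779 and 940 in the Eed KO and between 618 and 907 in the Eed control, and to between 163 and 168 in the Ring1a/b 2KO and between 108 and 172 in the Ring1 control, overlapping in both. Among them the root sheath keratin gene Krt27 measured 115, 24.9 and 33.1 in the Eed KO and 0, 5.07 and 9.10 in the Eed control, and the authors' deposited table called it higher with an adjusted p of 0.0451. Median log2 fold changes over the tested genes of the list were 1.39 in the Eed KO and 0.18 in the Ring1a/b 2KO.

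Melanocyte markers (5 genes) summed to between 127 and 366 in the Ring1a/b 2KO and to between 59.4 and 94.7 in the Ring1 control, and their sums overlapped between the Eed groups. Of these, the pigment cell gene Mlana measured 49.2, 7.26 and 41.0 in the Eed KO and 0 in all 3 Eed control libraries, and the authors' deposited table called it higher with an adjusted p of 0.00168. Upper follicle markers (4 genes) summed to between 5709 and 9755 in the Ring1a/b 2KO and to between 4002 and 5129 in the Ring1 control, but without the keratin gene Krt17 to between 2130 and 4884 in the Ring1a/b 2KO and between 2287 and 2290 in the Ring1 control. Upper follicle sums overlapped between the Eed groups, and those of the sebocyte list and the Langerhans and T cell list overlapped in both tables. The part of these cell types in the barrier gene values was not tested.

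Acylceramide synthesis begins with Elovl4, on chromosome 9 (83778692-83806277, minus strand, 6 exons), the elongase of very long fatty acids. It measured 1432, 3284 and 2622 in the Eed KO and 2491, 4790 and 3603 in the Eed control, and 2095 and 1167 in the Ring1a/b 2KO and 2487 and 1265 in the Ring1 control. Each comparison overlapped. limma gave log2 fold changes of -0.60 ± 0.33 in the Eed KO (SE, 95% interval -1.35 to 0.15; adjusted p = 0.989 in limma) and -0.18 ± 0.43 in the Ring1a/b 2KO (SE, 95% interval -1.29 to 0.92; adjusted p = 0.919 in limma). Over the 10 libraries, centred by table, Elovl4 followed the summed sebocyte markers with a Pearson's r of 0.85, and their part in its values was not tested. That sum was led by Dgat2 in the Eed libraries (27.9% to 56.2% of it) and by Far2 in the Ring1 libraries (31.4% to 55.6%). The value is also 1 of many such correlations between genes and marker lists.

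Cers3, on chromosome 7 (66743504-66823691, plus strand, 11 exons), encodes the ceramide synthase that joins these fatty acids to the sphingoid base. It measured 1173, 1325 and 1785 in the Eed KO and 1772, 1653 and 1960 in the Eed control, and the groups met only through Eed KO library 3. Its log2 fold change was -0.35 ± 0.20 (SE, 95% interval -0.81 to 0.11; adjusted p = 0.989 in limma). Cers3 measured 344 and 497 in the Ring1a/b 2KO, on either side of the 455 and 455 of the Ring1 control, a log2 fold change of -0.14 ± 0.25 (SE, 95% interval -0.71 to 0.43; adjusted p = 0.887 in limma).

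Pnpla1, on chromosome 17 (28858411-28890309, plus strand, 10 exons), encodes the acyltransferase that caps the ceramide with linoleic acid. It measured 260, 340 and 368 in the Eed KO and 249, 381 and 232 in the Eed control, with overlapping groups and a log2 fold change of 0.19 ± 0.30 (SE; adjusted p = 0.989 in limma). Pnpla1 measured 142 and 156 in the Ring1a/b 2KO, above the 118 and 83.1 of the Ring1 control. The log2 fold change of 0.58 ± 0.37 (SE, 95% interval -0.25 to 1.41; adjusted p = 0.628 in limma) was opposite in sign to those of the 3 oxidising enzymes. The annotation places an antisense gene over Pnpla1 and another over Tgm1, and the strand of the reads is not given in the sources used here.

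Abca12, on chromosome 1 (71242276-71414910, minus strand, 53 exons), encodes the transporter that loads glucosylceramides into lamellar bodies. It measured 1803, 5161 and 5570 in the Eed KO and 6663, 5828 and 6426 in the Eed control. All Eed KO libraries lay below all controls, but Eed KO library 1 set most of the distance. Its log2 fold change was -0.76 ± 0.38 (SE, 95% interval -1.61 to 0.10; limma unadjusted p = 0.0766, adjusted p = 0.989), and -0.23 without Eed KO library 1. Counts in the Ring1a/b 2KO were 1720 and 1576, against 1678 and 1710 in the Ring1 control, and overlapped. The log2 fold change there was -0.04 ± 0.19 (SE, 95% interval -0.48 to 0.40; adjusted p = 0.960 in limma), the narrowest interval of the 9 genes there.

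Tgm1, on chromosome 14 (55700009-55713926, minus strand, 15 exons), encodes the membrane-bound transglutaminase of keratinocytes, which crosslinks the cornified envelope. It measured 219, 84.0 and 168 in the Eed KO and 271, 249 and 488 in the Eed control. Every Eed KO library lay below every control, with group means of 157 ± 68.4 in the Eed KO and 336 ± 133 in the Eed control (SD, n = 3 each). This gave a log2 fold change of -1.13 ± 0.43 (SE, 95% interval -2.09 to -0.17; limma unadjusted p = 0.0262, adjusted p = 0.968), and the authors' deposited table gave a DESeq2 adjusted p of 0.421. Tgm1 measured 61.8 and 78.9 in the Ring1a/b 2KO, against 74.0 and 26.6 in the Ring1 control, and the groups overlapped. The log2 fold change there was 0.64 ± 0.58 (SE; adjusted p = 0.745 in limma), and -0.08 without Ring1 control library 2.

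The Eed KO change of Tgm1 minus its Ring1a/b 2KO change was -1.77 ± 0.75 on the log2 scale (SE, 95% interval -3.40 to -0.14; limma unadjusted p = 0.0358, adjusted p = 1.00). This was the only one of the 9 genes with an unadjusted p under 0.05 for the difference, as had 285 of 15096 genes (1.89%), of which limma called 0 (0%) after adjustment. DESeq2 on recovered reads called 1 gene for the difference. The differences of the other 8 genes lay between -0.71 (Abca12) and 1.27 (Sdr9c7), with 95% intervals that all held 0.

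Tgm3, on chromosome 2 (130012349-130050399, plus strand, 13 exons), encodes a transglutaminase of the upper epidermis and the hair follicle. It measured 4958, 4123 and 1100 in the Eed KO and 3204, 1761 and 536 in the Eed control. The lowest and the highest libraries of each group differed several-fold, and the log2 fold change was 0.96 ± 0.74 (SE, 95% interval -0.74 to 2.67; adjusted p = 0.989 in limma), between 0.25 and 1.64 without 1 library. Every Eed KO library lay above the Eed control library that shares its number and header letter, a letter of unstated meaning. For Elovl4 and Cers3 every Eed KO library lay below its same-numbered control, so this trait is not particular to Tgm3. DESeq2 with replicate number as a block, chosen after seeing the data, called Tgm3 in the Eed KO, while limma with that block did not. Tgm3 measured 686 and 3046 in the Ring1a/b 2KO, outside the 1454 and 922 of the Ring1 control on both sides. The log2 fold change of 0.32 ± 0.97 (SE; adjusted p = 0.941 in limma) was -0.75 without Ring1a/b 2KO library 2 and 1.39 without Ring1a/b 2KO library 1. Both of these fits leave 1 knockout library. With DESeq2 on recovered reads, the log2 fold change of Tgm3 was 1.35 without Ring1a/b 2KO library 1, where the remaining knockout library measured 3046.

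Around the barrier genes, 9 lists of 84 pathway genes were read, of which 81 were tested in the Eed table and 80 in the Ring1 table. limma called none in either. Of those in the Eed KO 27 had positive and 54 had negative log2 fold changes, with a median of -0.13, and the authors' deposited table called none, against 0.761% of all genes. In the Ring1a/b 2KO 29 were positive and 51 negative, with a median of -0.16, and the authors' deposited table called 3 higher and 1 lower, against 1.18% of all genes higher and 0.31% lower. At an unadjusted limma p under 0.05 there were 7 of 81 in the Eed KO, against 4.73% of all genes, and 12 of 80 in the Ring1a/b 2KO, against 10.4%.

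The called gene closest to lipid synthesis was Fads1, the delta-5 fatty acid desaturase. It measured 219 and 221 in the Ring1a/b 2KO and 89.6 and 38.2 in the Ring1 control, without overlap. limma gave 1.89 ± 0.45 on the log2 scale (SE, adjusted p = 0.224), and Fads1 was called higher in the authors' deposited table, with an adjusted p of 0.0375. Fads1 measured 486, 64.3 and 93.9 in the Eed KO, against 72.1, 16.2 and 73.8 in the Eed control, overlapping. The other 12 fatty acid elongation and activation genes included none that was called, and the medians of the 13 were -0.12 in the Eed KO and -0.20 in the Ring1a/b 2KO.

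In ceramide synthesis (11 genes, 0 called by either test), the serine palmitoyltransferase subunit Sptlc3 measured 467 and 299 in the Ring1a/b 2KO and 720 and 681 in the Ring1 control. The ceramide synthase Cers6 measured 3144 and 1929 in the Ring1a/b 2KO and 4335 and 4342 in the Ring1 control. Both lay below their controls without overlap, with log2 fold changes of -0.90 ± 0.26 for Sptlc3 (adjusted p = 0.317 in limma) and -0.82 ± 0.25 for Cers6 (adjusted p = 0.349 in limma). None of the 4 partners of acylceramide synthesis was called by either test. The ω-hydroxylase gene Cyp4f39 had log2 fold changes of -0.11 ± 0.37 in the Eed KO and, at counts of 13.6 and 7.17 in the Ring1a/b 2KO against 22.9 and 21.6 in the Ring1 control, of -1.09 ± 0.75 there (SE; adjusted p = 0.993 in the Eed KO and 0.657 in the Ring1a/b 2KO in limma). Abhd5, the partner of PNPLA1, had a log2 fold change of -0.21 ± 0.17 in the Eed KO. Abhd5 in the Ring1a/b 2KO was at -0.05 ± 0.20 and the transport-related ichthyosis gene Nipal4 at 0.01 ± 0.25 (SE). Among 8 genes of glucosylceramide and sphingomyelin processing, 7 were negative in each knockout, with medians of -0.28 in the Eed KO and -0.27 in the Ring1a/b 2KO. Of these the sphingomyelin synthase Sgms1 measured 3429, 4650 and 4684 in the Eed KO, below the 6687, 4992 and 6382 of the Eed control (limma unadjusted p = 0.0327, adjusted p = 0.989).

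Other lipoxygenases and epoxide hydrolases (8 genes, 8 tested in the Eed table and 7 in the Ring1 table) had medians of -0.01 in the Eed KO and 0.11 in the Ring1a/b 2KO, and none was called. The lipoxygenase Alox12 had a log2 fold change of -0.59 ± 0.35 in the Eed KO and -0.56 ± 0.47 in the Ring1a/b 2KO (SE; adjusted p = 0.989 and 0.726 in limma). Of the lamellar body list (7 genes, 6 in the tables; Sts was not analysed here), the caveola protein gene Cav1 measured 2944 and 1820 in the Ring1a/b 2KO, below the 3703 and 4515 of the Ring1 control (log2 fold change -0.82 ± 0.26; adjusted p = 0.364 in limma).

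The 5 other transglutaminase genes tested had median log2 fold changes of -0.22 in the Eed KO and 0.43 in the Ring1a/b 2KO. Among them Tgm7 measured 135, 226 and 181 in the Eed KO and 342, 290 and 425 in the Eed control, without overlap. Its log2 fold change was -0.97 ± 0.31 (SE; limma unadjusted p = 0.0114, adjusted p = 0.868). Tgm5, a transglutaminase of the upper epidermis, had log2 fold changes of 0.55 ± 0.45 in the Eed KO and 0.72 ± 0.39 in the Ring1a/b 2KO (SE; adjusted p = 0.989 and 0.566 in limma).

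Substrates of the transglutaminases split in direction. Of 11 tested, 9 were negative in the Eed KO and 7 in the Ring1a/b 2KO, with medians of -0.37 and -0.36. The major envelope protein gene Lor measured 159 and 73.5 in the Ring1a/b 2KO and 754 and 301 in the Ring1 control, and was called lower in the authors' deposited table. The authors' deposited table called the small proline-rich envelope genes Sprr1b and Sprr2d higher in the Ring1a/b 2KO. Sprr1b measured 22.9 and 100 in the Ring1a/b 2KO and 5.73 and 1.66 in the Ring1 control, and Sprr2d measured 7.42 and 39.4 in the Ring1a/b 2KO and 0 in both Ring1 control libraries. The cystatin gene Cst6, whose product inhibits proteases of the upper epidermis, measured 898, 1295 and 1289 in the Eed KO and 1590, 2368 and 1835 in the Eed control, and 292 and 280 in the Ring1a/b 2KO and 504 and 439 in the Ring1 control. Cst6 lay below its controls without overlap in both tables, at -0.73 ± 0.23 in the Eed KO and -0.72 ± 0.24 in the Ring1a/b 2KO (SE; adjusted p = 0.844 and 0.372 in limma).

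Of 15 differentiation transcription factors, 11 had negative log2 fold changes in each knockout, with medians of -0.30 in the Eed KO and -0.18 in the Ring1a/b 2KO, and none was called. Klf4, a factor of barrier formation in mouse epidermis, measured 31160, 35734 and 51440 in the Eed KO and 74863, 55022 and 56043 in the Eed control. These groups did not overlap (log2 fold change -0.67 ± 0.27; limma unadjusted p = 0.0335, adjusted p = 0.989). Grhl3, a Grainyhead-like factor that drives transglutaminase 1 in mouse epidermis, had a log2 fold change of -0.50 ± 0.22 in the Eed KO (SE; adjusted p = 0.989 in limma). Gata3, which mouse epidermis needs for lipid synthesis, measured 5066 and 2173 in the Ring1a/b 2KO, against 6083 and 7455 in the Ring1 control (adjusted p = 0.483 in limma).

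**Figure D4:**
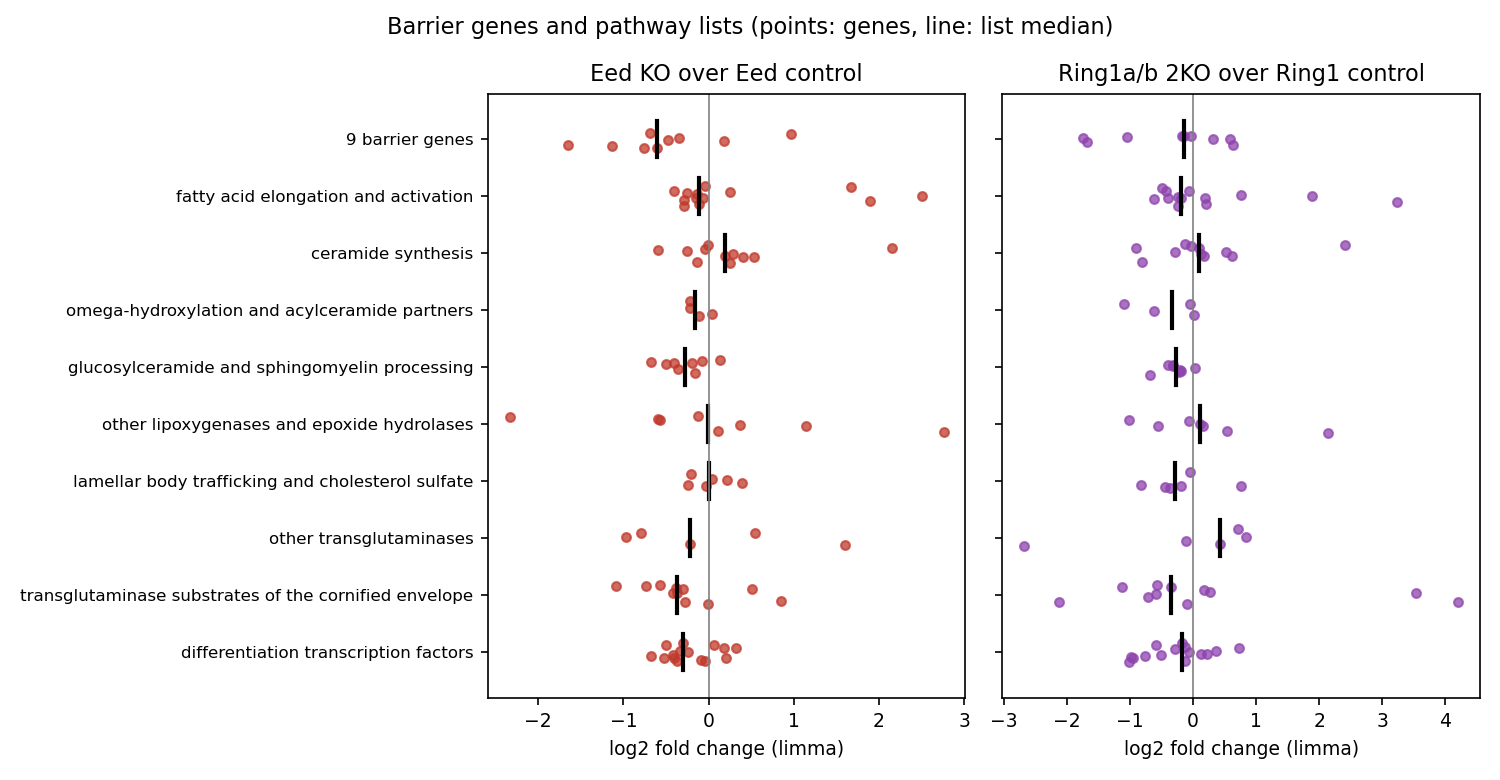
Log2 fold change from limma (x axis) of the 9 barrier genes and of each tested gene of the 9 pathway lists, for the Eed KO over the Eed control (left panel) and the Ring1a/b 2KO over the Ring1 control (right panel), with a line at each median. The barrier genes have medians of -0.60 in the Eed KO and -0.14 in the Ring1a/b 2KO, and their lowest points are Alox12b at -1.65 in the Eed KO and Sdr9c7 at -1.74 in the Ring1a/b 2KO.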

How the data were processed

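Per the submitters' processing notes, the authors used kallisto 0.42.5, DESeq2 3.11 and the mm10 build; how the reads were mapped, and whether with strand, is not given in the sources used. Libraries came from 10 ng of amplified total RNA, sequenced as 150-nucleotide paired ends, per the labels' protocols. The per-library values, a signal unit, are normalised read counts in the authors' deposited tables, which also hold the authors' log2 fold changes and their p-values. Standard errors and Wald statistics, scores in the authors' deposited tables, were used only as SE. Every library's values were whole multiples of 1 step (tolerance 0.001), so reads could be recovered.

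limma 3.58.1 (trend, robust; R 4.3.3) took log2(value + 1) of every gene whose mean was 5 or more, each knockout against its own control and both changes against each other, and p-values were adjusted by Benjamini-Hochberg over all genes. A fold change on this scale understates the change of low genes. The fit was also run on simulated data with the same dispersion for every gene. That setting is simpler than these libraries, so it does not show how the fit performs on them. DESeq2 1.42.0 and edgeR 4.0.16 on recovered reads, other filters, pseudocounts and scalings, a replicate block and left-out libraries were alternatives. Positions are from GENCODE M21 (18495 of 18502 and 18339 of 18344 identifiers matched without version). The members and lists were chosen with earlier results of these data known. Besides the 9 genes, up to 3 genes a list were named by smallest unadjusted p at a mean of at least 50, with genes called by the authors' deposited table added after their values were seen. Not analysed here were Sts, Sprr3 and Trac.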

Additional observations from a re-analysis of the deposited data

How the results depend on the processing

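All 9 barrier genes kept limma adjusted p above 0.05 with no filter or a higher one (a mean of 50), with 0.5 or 5 as pseudocount, under quantile normalization and median centring, at a threshold of 0.1, the replicate block and every left-out library. The number of genes called moved with the tool and with single libraries. In the Eed KO it was 0 in limma, 127 in DESeq2 on recovered reads and in the authors' deposited calls, 0 to 4 in limma without 1 library and 30 to 189 in DESeq2 without 1 library. In the Ring1a/b 2KO it was 6 in limma, 10 without the filter, 231 in DESeq2 and in the authors' deposited calls, 0 to 438 in limma without 1 library (438 without Ring1a/b 2KO library 1) and 39 to 679 in DESeq2 without 1 library. For the difference between the knockouts it was 0 in limma, 1 in DESeq2 and 0 to 4 without 1 library. Barrier genes called came to 0 in limma, without any 1 library as well, and in DESeq2 without 1 library to 0 to 1 in the Eed KO and 0 to 2 in the Ring1a/b 2KO. DESeq2 and the authors' deposited calls named 1 barrier gene in the Ring1a/b 2KO, Sdr9c7.

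Whether replicate numbers pair the libraries was not settled. Same-numbered deviations correlated at -0.20, 0.16 and 0.31 in the Eed table, and other-numbered ones between -0.36 and 0.21. The Ring1 table has only 2 pairs (0.23), and its other-numbered values are the same with the sign turned (-0.23). So few libraries cannot decide it. Column headers of the Eed table give same-numbered libraries a shared letter, whose meaning is not given in the sources used here. With the replicate block limma called 1 gene in the Eed KO and 36 in the Ring1a/b 2KO. DESeq2 with the replicate block, chosen after seeing the data, called 129 genes in the Eed KO and 320 in the Ring1a/b 2KO, with 2 barrier genes in the Eed KO (Alox12b, adjusted p = 0.00244, and Tgm3, adjusted p = 0.0264) and 1 in the Ring1a/b 2KO (Sdr9c7).

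The median log2 fold change of the 9 barrier genes in the Eed KO ran between -0.81 and -0.23 without 1 library, and in the Ring1a/b 2KO between -0.40 and -0.055. In the Eed KO the ceramide synthesis median ran between -0.026 and 0.23. In the Ring1a/b 2KO medians ran between -0.57 and 0.035 for transcription factors, -0.32 and 0.14 for fatty acid genes, -0.46 and -0.0090 for the lamellar body list, -0.47 and -0.23 for acylceramide partners, and -0.66 and 0.43 for other lipoxygenases. At a mean of at least 50 the other transglutaminases were only Tgm4, Tgm5 and Tgm7 in the Eed KO. Their median was -0.80 (-0.22 over all tested). In the Ring1a/b 2KO they were only Tgm5, which was positive, and Tgm7, with a median of -0.98 (0.43 over all tested). The acylceramide partners had a median of -0.054 in the Ring1a/b 2KO at that filter. Under quantile normalization the fatty acid median in the Ring1a/b 2KO was 0.0010.

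Signs turned without 1 library for log2 fold changes near 0 or of wide spread, over limma and DESeq2. In the Ring1a/b 2KO these ranges were -0.10 to 0.022 in limma and -0.11 to 0.036 in DESeq2 for Abca12 (0.13 under quantile normalization), -0.40 to 0.13 and -0.39 to 0.12 for Cers3, -0.67 to 0.31 and -0.69 to 0.37 for Elovl4, -0.082 to 1.36 and -0.093 to 1.40 for Tgm1, and -0.75 to 1.39 and -0.78 to 1.35 for Tgm3. In the Eed KO Sdr9c7 ran between -1.41 and 0.37 in limma and -1.44 and 0.20 in DESeq2. For the difference between the knockouts the limma ranges were -0.29 to 0.44 for Alox12b, -0.22 to 0.77 for Aloxe3, -0.48 to 0.052 for Cers3, -0.91 to 0.068 for Elovl4 and -0.43 to 1.72 for Tgm3. The difference of Alox12b was -0.056 at a pseudocount of 5, -0.0062 under median centring and -0.011 in DESeq2. The cause of these changes was not tested. Depth behind the genes differed: Alox12b rested on 12 to 511 reads a library and Abca12 on 879 to 7060, and no detection limit was computed.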

Other observations

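Over the 10 libraries, with each gene centred on the mean of its table, the genes whose log2 values were most like the mean of the 9 barrier genes were Zfp2 (Pearson's r 0.97), Gabbr1 (0.95), Crybg2 (0.94), Tuft1 (0.94) and Mapk8 (0.94), among 11281 genes whose mean was 50 or more in each table. These are the highest of many values over libraries that share normalisation and group, and are given as a description.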
